A study of Mus musculus with 10 samples.

Results

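The proteasome subunit genes are the 43 RefSeq NM_ genes of the mouse genome build GRCm38 (mm10) whose symbol is Psma, Psmb, Psmc, Psmd or Psme followed only by digits, out of 21000 NM_ genes on chromosomes 1 to 19, X and Y. By role they comprised 7 alpha and 7 beta subunits of the 20S core, 5 immunoproteasome or tissue-specific core subunits, 6 ATPases and 14 non-ATPase subunits of the 19S regulatory particle, and 4 activator genes. The rule uses gene symbols alone. The study asked where the glucocorticoid receptor (GR) and the lysine demethylase LSD1 sit on chromatin of skeletal muscle from C57BL/6J mice, aged 10 weeks, either with food or after 24 h of starvation, and the labels give no genetic change. Chromatin immunoprecipitation with sequencing (ChIP-seq) was performed for GR, LSD1 and the histone marks H3K9me1 and H3K9me2 in each condition, with 1 library per group, and an input library per condition served as the background. Whole muscle holds nuclei of several cell types, and a peak cannot be assigned to one of them.

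The proteasome is the large protease that degrades proteins marked with ubiquitin, and it carries much of the protein breakdown of wasting muscle. Its 20S core is a barrel of alpha rings, which gate the entrance, and beta rings, of which the subunits Psmb5, Psmb6 and Psmb7 are catalytic. The 19S particle recognises ubiquitin, removes it and unfolds the substrate with its ATPase ring, whereas the Psme proteins are alternative caps. GR is the hormone receptor through which glucocorticoids act on muscle during starvation, and LSD1 removes methyl groups from histone H3, including mono- and dimethylation of lysine 9.

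The 8 peak lists differed widely in length, from 6624 peaks for H3K9me2 in starved muscle to 171402 for H3K9me2 in fed muscle. The fed list held 14108 peaks for GR and 16616 for LSD1, and the starved list 37783 and 66332. The study's text describes a far shorter starved LSD1 list, and its methods name a limit of 0.01 for the false discovery rate of all peak calls. At a q of 0.01 or less the starved LSD1 list used here still held 6790 peaks, more than that text describes. Every starved LSD1 count given here thus rests on a list that may be another version. The lists hold no read counts, so the sequencing depth of each library is unknown, and with 1 library per group no difference between conditions could be tested against replicate error. The labels give the libraries 2 codes, and for both histone marks the fed library carried one code and the starved library the other, so condition and code cannot be told apart for these marks. A gene was counted as having a promoter peak when the midpoint of a peak lay between 1000 bp upstream and 100 bp downstream of one of its transcription starts. Fold values are the enrichment of a peak over input, and q is the peak caller's p-value adjusted for multiple testing.

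At promoters, LSD1 in fed muscle was listed at more proteasome genes than GR. In fed muscle GR had a promoter peak at 11 of 43 proteasome genes (25.6%, exact 95% interval 13.5 to 41.2), against 15.1% of all NM_ genes, and in starved muscle at 17 (39.5%, 25.0 to 55.6), against 26.0%. LSD1 had one at 21 (48.8%, 33.3 to 64.5) in fed muscle, against 25.4%, and at 13 (30.2%, 17.2 to 46.1) in starved muscle, against 18.0%. These intervals cover counting error over genes only. Most proteasome promoters are CpG-rich, which was defined as at least 50% G and C and an observed to expected CpG ratio of at least 0.6 in the 300 bases around the start: 24 of the 36 proteasome genes with a promoter sequence met it (66.7%, 49.0 to 81.4), against 49.8% of NM_ genes with one. Among all NM_ genes with a CpG-rich promoter the shares were 26.3% for GR in fed muscle, 44.0% for GR in starved muscle, 44.9% for LSD1 in fed muscle and 29.7% for LSD1 in starved muscle. Each of these 4 values lay inside the interval of all 43 proteasome genes, of which 24 are known to be CpG-rich. Among these 24, GR was listed at 7 (29.2%, 12.6 to 51.1) in fed and 12 (interval 29.1 to 70.9) in starved muscle. LSD1 was listed at 15 (62.5%, 40.6 to 81.2) in fed and 12 (interval 29.1 to 70.9) in starved muscle. The 4 values lay inside these intervals too, but below the matched share in each list. For LSD1 in starved muscle, 29.7% was just above the lower limit. These differences were not tested.

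**Figure D1:**
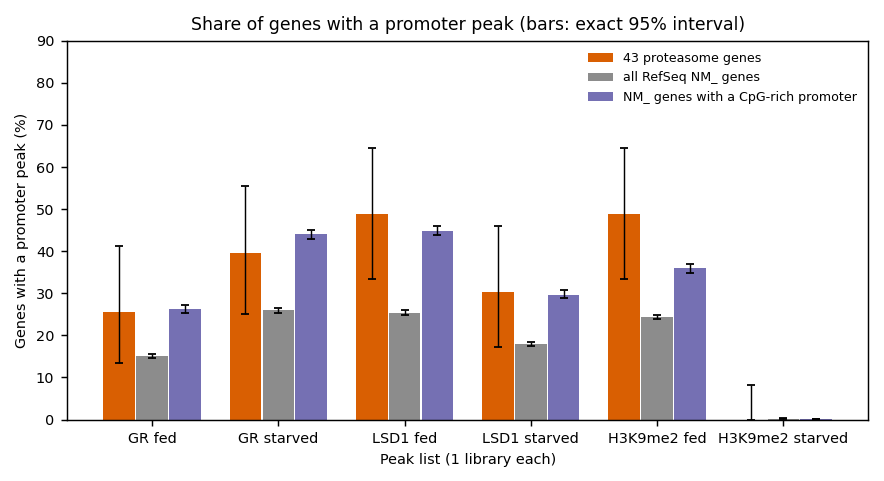
Share of genes with a promoter peak (y axis, percent) in 6 lists (x axis), for the 43 proteasome genes, all NM_ genes and NM_ genes with a CpG-rich promoter. Error bars are exact 95% binomial intervals over genes of 1 library each, and the proteasome bars, for example 48.8% for LSD1 in fed muscle, stand above the bars of all NM_ genes (25.4% in that list), except for H3K9me2 in starved muscle, which is at 0. The CpG-rich NM_ genes stand at 44.9% in that list, inside the interval of the 43 proteasome genes, of which not all are CpG-rich.

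The count for GR was 6 genes higher in starved than in fed muscle, but the starved list was also the longer one. With both GR lists reduced to 14108 peaks by q, 11 proteasome genes had a promoter peak in fed and 10 in starved muscle, and the shares of all NM_ genes were 15.1% and 13.6%. With peaks of q of 0.01 or less the counts were 8 and 9 (18.6% and 20.9%), against 9.03% and 12.6% of all NM_ genes. For LSD1 the order did not depend on list length, as 21 and 7 proteasome genes remained with lists of 16616 peaks and 13 and 2 at a q of 0.01 or less. All NM_ genes moved in the same direction, with 25.4% and 7.54% for the LSD1 lists of equal length and 11.8% and 3.38% at a q of 0.01 or less.

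**Figure D2:**
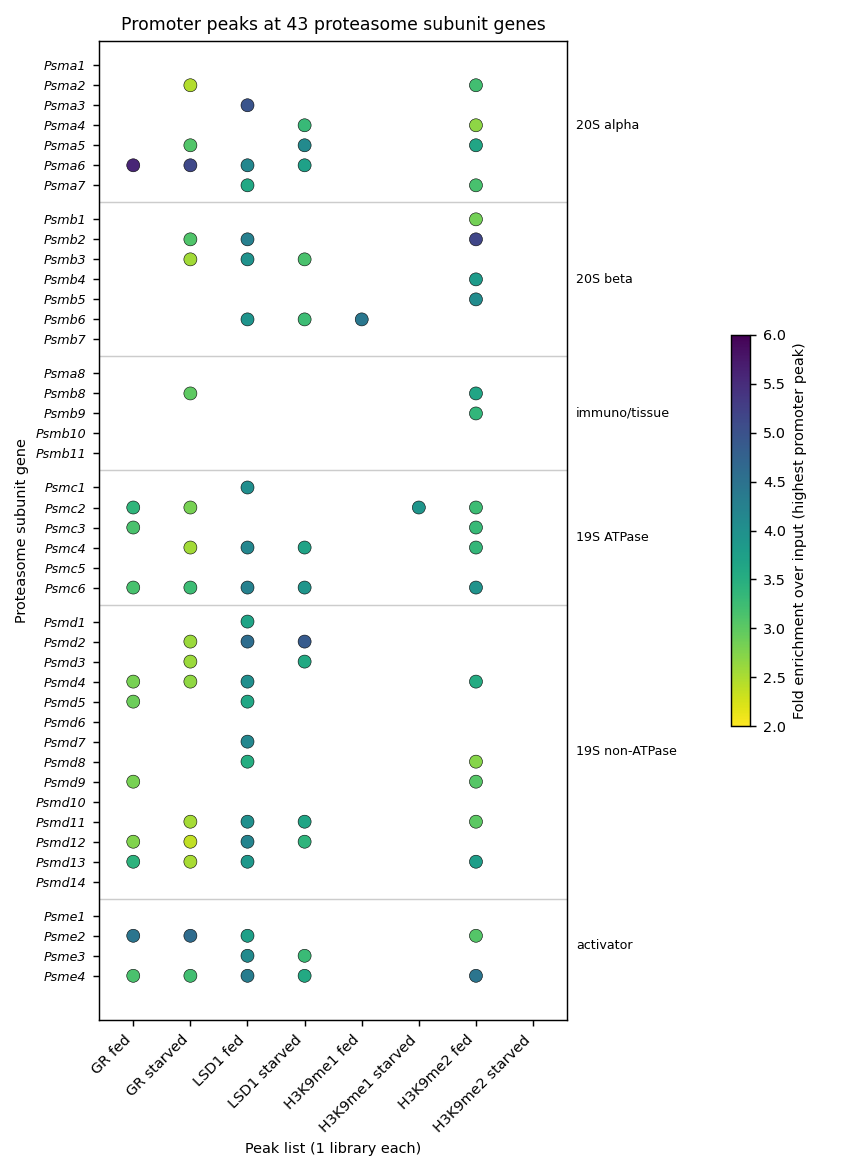
Promoter peaks of the 43 proteasome genes (rows, grouped by role) in the 8 lists (columns), with the colour giving the fold enrichment over input of the highest promoter peak and an empty cell meaning that no peak had its midpoint in the promoter window. Psma6, Psmc6, Psmd12 and Psme4 have points in all 4 GR and LSD1 columns, and the H3K9me2 column of starved muscle is empty.

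Both factors were listed in both conditions at 4 proteasome promoters (9.30%), against 4.68% of all NM_ genes and 8.59% of those with a CpG-rich promoter. The 4 were Psma6, an alpha ring subunit, Psmc6, an ATPase, Psmd12, a scaffold subunit of the 19S lid, and Psme4, which encodes the activator PA200. No GR or LSD1 promoter peak was listed in either condition at 14 genes (32.6%), against 58.3% of all NM_ genes and 32.0% of those with a CpG-rich promoter. These 14 were Psma1, Psmb1, Psmb4, Psmb5, Psmb7, Psma8, Psmb9, Psmb10, Psmb11, Psmc5, Psmd6, Psmd10, Psmd14 and Psme1. This group held 2 of the catalytic subunits, Psmb5 and Psmb7, and Psmd14, the deubiquitinase of the 19S lid. It also held 4 of the 5 immunoproteasome and tissue-specific subunits (80.0%, exact interval 28.4 to 99.5), an interval that includes the share of all NM_ genes.

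The promoters that carry these contrasts are shown here as the 150 bases before the start, in the direction of the gene, from RefSeq (GRCm38.p6). The first 4 had both factors in both conditions, and Psma3 and Psmd2 had the highest LSD1 folds. Psma2, Psmb6 and Psmd9 held motif matches under a peak, and Psmd14 had no GR or LSD1 promoter peak. Capitals mark matches to the motifs described further on (the NRF1 core, the antioxidant response element core, the CCAAT box and the GC box).
Psma6 (chr12:55398675-55398824, plus strand): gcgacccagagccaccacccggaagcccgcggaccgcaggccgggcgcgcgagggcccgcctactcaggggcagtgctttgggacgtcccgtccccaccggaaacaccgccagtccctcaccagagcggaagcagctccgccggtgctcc
Psmc6 (chr14:45329674-45329823, plus strand): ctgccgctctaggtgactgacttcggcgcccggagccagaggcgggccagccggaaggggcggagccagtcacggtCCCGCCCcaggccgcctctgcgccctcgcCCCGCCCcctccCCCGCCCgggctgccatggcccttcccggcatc
Psmd12 (chr11:107479378-107479527, plus strand): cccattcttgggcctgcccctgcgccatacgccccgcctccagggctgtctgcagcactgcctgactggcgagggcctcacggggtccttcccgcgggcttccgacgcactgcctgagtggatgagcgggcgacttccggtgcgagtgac
Psme4 (chr11:30771625-30771774, plus strand): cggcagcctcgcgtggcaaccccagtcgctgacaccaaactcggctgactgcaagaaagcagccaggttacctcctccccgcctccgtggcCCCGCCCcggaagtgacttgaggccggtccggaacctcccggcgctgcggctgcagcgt
Psma3 (chr12:70974473-70974622, plus strand): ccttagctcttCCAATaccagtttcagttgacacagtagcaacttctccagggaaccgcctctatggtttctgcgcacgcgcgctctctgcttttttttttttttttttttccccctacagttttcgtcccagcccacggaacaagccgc
Psmd2 (chr16:20651502-20651651, plus strand): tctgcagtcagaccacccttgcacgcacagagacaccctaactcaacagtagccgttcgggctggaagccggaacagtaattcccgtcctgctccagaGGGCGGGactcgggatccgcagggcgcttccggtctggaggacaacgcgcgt
Psma2 (chr13:14613092-14613241, plus strand): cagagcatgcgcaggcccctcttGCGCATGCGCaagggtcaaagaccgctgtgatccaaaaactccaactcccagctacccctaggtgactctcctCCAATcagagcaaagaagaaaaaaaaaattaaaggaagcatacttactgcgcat
Psmb6 (chr11:70525207-70525356, plus strand): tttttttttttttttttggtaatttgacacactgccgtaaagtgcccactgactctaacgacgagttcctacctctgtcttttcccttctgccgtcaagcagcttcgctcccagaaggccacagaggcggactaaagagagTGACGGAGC
Psmd9 (chr5:123228040-123228189, plus strand): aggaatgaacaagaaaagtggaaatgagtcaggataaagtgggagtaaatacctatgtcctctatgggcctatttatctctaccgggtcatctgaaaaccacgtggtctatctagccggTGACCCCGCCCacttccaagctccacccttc
Psmd14 (chr2:61711544-61711693, plus strand): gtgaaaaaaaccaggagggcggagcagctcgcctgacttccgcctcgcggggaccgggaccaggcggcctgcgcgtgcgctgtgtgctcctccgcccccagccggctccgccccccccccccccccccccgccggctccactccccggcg

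Among the 20S alpha genes, Psma6 had the strongest GR enrichment of any proteasome promoter. Its fold was 5.58 in fed muscle (chr12:55398456-55398979, q = 5.00e-14) and 5.14 in starved muscle (chr12:55398496-55399003, q = 8.00e-14). LSD1 overlapped both peaks with a fold of 4.14 in fed and 3.72 in starved muscle. These peaks lay at the downstream start of the 2 annotated for Psma6, inside an intron of the longer transcript. Psma2 had GR in starved muscle only (2.46), and Psma5 had GR (3.09) and LSD1 (4.10) in starved muscle only, overlapping each other. LSD1 alone was listed at Psma3, Psma7 and Psma4. At Psma3 it had its highest fold at a proteasome promoter in fed muscle, 4.96 (chr12:70974408-70974825, q = 0.000497), at Psma7 its promoter peak was in fed muscle (3.60) and at Psma4 in starved muscle (3.30).

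No 20S beta gene had a GR promoter peak in fed muscle (0 of 7, exact interval up to 41.0%), against 15.1% of all NM_ genes. In starved muscle GR was listed at Psmb2 (3.11) and Psmb3 (2.55), and both had LSD1 in fed muscle, with folds of 4.28 and up to 3.97. Psmb3 kept an LSD1 peak in starved muscle (3.15). Psmb6, a catalytic subunit, had LSD1 in both conditions (3.93 in fed and 3.25 in starved muscle), and a further starved peak, with its midpoint 110 bp downstream and so outside the window, overlapped the fed peak (3.56). Of the immunoproteasome genes, which interferon induces and which supply alternative catalytic subunits, only Psmb8 had a promoter peak of either factor, GR in starved muscle (3.00, q = 0.00279), with its midpoint 556.5 bp upstream. Psmb9, Psmb10, the thymus subunit gene Psmb11 and the testis subunit gene Psma8 had none in the window. Downstream of it, Psmb9 had a starved LSD1 peak at 293 bp. Psmb10 had GR peaks there in fed (1.47 kb) and starved muscle (0.523 and 1.24 kb).

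Of the 19S ATPase genes, whose products form the unfolding ring, 5 of 6 had a GR or LSD1 promoter peak. The 1 without (16.7%, exact interval 0.421 to 64.1) compares with 58.3% of all NM_ genes and 32.0% of those with a CpG-rich promoter, both inside the interval. Psmc6 had GR folds of 3.16 in fed and 3.26 in starved muscle and LSD1 folds of 4.26 and 3.91. Psmc2 had GR without LSD1 in both conditions, with peaks at each of its 2 starts in fed muscle (3.38 and 3.27) and at the upstream one in starved muscle (2.83). At the downstream start a starved GR peak (2.53) overlapped the fed one, with its midpoint 119.5 bp downstream and outside the window. Psmc4 had LSD1 in both conditions (4.14 and 3.68) and GR in starved muscle (2.56). Psmc1 had LSD1 in fed muscle (4.03). Psmc3 had GR in fed muscle (3.15), and a starved GR peak touched this region with its midpoint outside the promoter window. Psmc5 had none.

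LSD1 had a promoter peak at 9 of the 14 non-ATPase genes in fed muscle (64.3%, exact interval 35.1 to 87.2) and at 4 in starved muscle (28.6%, 8.39 to 58.1). The shares of all NM_ genes were 25.4% and 18.0%, and of those with a CpG-rich promoter 44.9% and 29.7%. Psmd2, a large scaffold of the 19S base, had the highest LSD1 fold at a proteasome promoter in starved muscle, 4.87 (chr16:20651672-20651720, in an exon, q = 0.000105), against 4.58 in fed muscle, and GR was listed there in starved muscle (2.60). Psmd12 had GR (2.76 and 2.38) and LSD1 (4.19 and 3.40) in both conditions. The ubiquitin receptor gene Psmd4 and Psmd13 had GR in both conditions and LSD1 in fed muscle. Psmd11, a lid subunit gene, had LSD1 in both conditions (4.02 and 3.64) and GR in starved muscle (2.54). Psmd5 and Psmd9, which encode assembly chaperones of the 19S base, had GR in fed muscle (2.90 and 2.82), and Psmd5 also had LSD1 there (3.61). Psmd1, Psmd7 and Psmd8 had an LSD1 promoter peak in fed muscle, and Psmd3 had both factors in starved muscle.

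Of the activator genes, Psme4 had GR folds of 3.14 and 3.21 and LSD1 folds of 4.34 and 3.58 in fed and starved muscle. Psme2, which encodes a subunit of the interferon-induced PA28 cap, had the highest GR folds after Psma6, 4.45 in fed (q = 1.70e-08) and 4.59 in starved muscle (q = 6.29e-11). Its fed GR peak lay 715.5 bp upstream, and the start of the divergent gene Rnf31 was 641 bp upstream of Psme2. Psme3, the gene of the nuclear cap PA28 gamma, had LSD1 in both conditions (4.10 and 3.28) and no GR promoter peak. Psme1, the partner of Psme2, had neither factor at its promoter.

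GR was listed at 8 proteasome promoters in both conditions (11.0% of all NM_ genes), at 9 in starved muscle and not in fed (15.0%) and at 3 in fed muscle and not in starved (4.13%). Among NM_ genes with a CpG-rich promoter these shares were 19.5%, 24.6% and 6.83%, and among the proteasome genes 18.6%, 20.9% and 6.98%. The 9 were Psma2, Psma5, Psmb2, Psmb3, Psmb8, Psmc4, Psmd2, Psmd3 and Psmd11, and their folds in starved muscle were 2.46 to 3.11, with q between 0.000779 and 0.0403. At 5 of these 9 (Psmb2, Psmb3, Psmc4, Psmd2 and Psmd11) LSD1 had a promoter peak in fed muscle. Over all NM_ genes this held for 1541 of the 3157 with GR in starved muscle and not in fed. As a share of all genes the combination was listed at 11.6% of the 43 proteasome genes and 7.34% of NM_ genes. When any base of a peak in the window counted, Psmb4, Psmb7, Psmc3, Psmd7 and Psmd8 also had GR in starved muscle.

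LSD1 was listed at 10 proteasome promoters in both conditions (10.8% of all NM_ genes), at 11 in fed muscle and not in starved (14.6%) and at 3 in starved muscle and not in fed (7.16%). Among NM_ genes with a CpG-rich promoter these shares were 19.9%, 25.0% and 9.80%. Among the 24 CpG-rich proteasome genes they were 41.7% (22.1 to 63.4), 20.8% (7.13 to 42.2) and 8.33% (1.03 to 27.0). The value of 19.9% thus lay below the first of these intervals, and the difference was not tested. All 10 with LSD1 in both conditions were CpG-rich: Psma6, Psmb3, Psmb6, Psmc4, Psmc6, Psmd2, Psmd11, Psmd12, Psme3 and Psme4. Over all NM_ genes, at least 1670 of the 2277 with LSD1 in both conditions were CpG-rich, as not every gene had a promoter sequence. The 11 with a promoter peak in the fed list but not in the starved one were Psma3, Psma7, Psmb2, Psmc1, Psmd1, Psmd4, Psmd5, Psmd7, Psmd8, Psmd13 and Psme2. At Psma7 and Psmd7 a starved LSD1 peak overlapped the fed one with its midpoint just outside the window, 106 bp (3.31) and 121.5 bp (4.78) downstream of the start, so LSD1 was listed there in both conditions when any base of a peak counted. Psmd8 had a starved LSD1 peak (4.40, q = 0.000112) 436.5 bp downstream of its start, outside the window. It did not overlap the fed peak (3.52). The fed folds of the 11 were 3.52 to 4.96 (median 3.87). They ranged over those of the genes with LSD1 in both conditions (3.59 to 4.58, median 4.14). Of the starved LSD1 peaks of the latter group, 1 of 10 had a q of 0.01 or less, against 8 of their 11 fed peaks. Over all LSD1 promoter peaks of NM_ genes, whether kept or not, these shares were 17.6% in the starved and 44.4% in the fed list.

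The GR and LSD1 peaks overlapped by at least 1 bp at 7 proteasome promoters in fed muscle (16.3%), against 9.50% of all NM_ genes. In starved muscle they overlapped at 10 (23.3%), against 8.80%. Among NM_ genes with a CpG-rich promoter the shares were 17.2% in fed and 16.0% in starved muscle. Among the 24 CpG-rich proteasome genes they were 25.0% (9.77 to 46.7) and 37.5% (18.8 to 59.4). The value of 16.0% lay below the latter interval, and the difference was not tested. The proteasome promoters with an overlap in fed muscle were Psma6, Psmc6, Psmd4, Psmd5, Psmd12, Psmd13 and Psme4. In starved muscle they were Psma5, Psma6, Psmb3, Psmc4, Psmc6, Psmd2, Psmd3, Psmd11, Psmd12 and Psme4. At a q of 0.01 or less 3 and 1 such promoters remained in fed and starved muscle. The share of all NM_ genes with such an overlap was not counted at this limit. Their share with an LSD1 promoter peak in starved muscle fell from 18.0% to 3.38% under it.

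At the 8 promoters where GR peaks of both conditions overlapped and both midpoints lay in the window, the ratio of starved to fed fold had a median of 0.933, from 0.735 at Psmd13 (3.43 and 2.52) to 1.03 at Psmc6 and Psme2. It was above 1 at 3 of 8 genes. Over the 2209 NM_ genes with such a pair the median was 0.908, and 22.0% had a higher starved fold. The direction of the median depended on scale, because it was 1.04 when each fold was divided by the median promoter fold of its list and 1.03 over the 4 genes with q of 0.01 or less in both conditions. At the 9 promoters with overlapping LSD1 peaks the median ratio was 0.888, from 0.801 at Psme3 to 1.06 at Psmd2, the single gene with a higher starved fold, and over 1806 NM_ genes it was 0.868. Peak lengths also differed, with medians of 371 bp in fed and 461 bp in starved muscle for the GR pairs, and 325 and 227 bp for the LSD1 pairs.

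**Figure D3:**
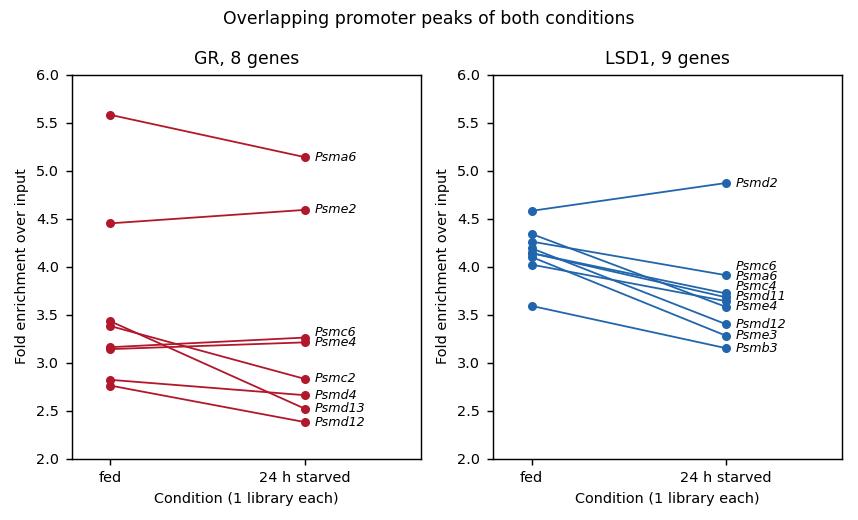
Fold enrichment over input (y axis) in fed and 24 h starved muscle (x axis) for the 8 proteasome genes with overlapping GR promoter peaks and the 9 with overlapping LSD1 promoter peaks. Each line is a gene, each point is 1 library, and the lines of Psmc6, Psme2 and Psme4 for GR and of Psmd2 for LSD1 go up.

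Within the window the median midpoint lay 70.0 bp upstream for the 12 GR peaks of fed muscle, 97.0 bp upstream for the 17 of starved muscle, 67.5 bp upstream for the 22 LSD1 peaks of fed muscle and 65.8 bp upstream for the 14 of starved muscle. A midpoint within 200 bp of the start was found for 10 of 12, 14 of 17, 16 of 22 and 11 of 14 of them (83.3%, 82.4%, 72.7% and 78.6%). Among the promoter peaks of all NM_ genes, chosen by the same window, these shares were 66.3%, 66.7%, 72.4% and 64.6%, and the window itself ends 100 bp downstream. The fold of these peaks was near that of all NM_ promoters, with medians of 3.15 against 3.04 (GR, fed), 2.66 against 2.72 (GR, starved), 4.03 against 3.98 (LSD1, fed) and 3.59 against 3.45 (LSD1, starved). A second start on the opposite strand lay within 1 kb upstream of 8 of 43 proteasome genes (18.6%, 8.39 to 33.4), against 8.80% of all NM_ genes, as for Psma7 and Ss18l1 (19 bp), Psmd13 and Sirt3 (85 bp) and Psmc2 and Dnajc2 (110 bp). A peak between such starts lies upstream of both genes.

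**Figure D4:**
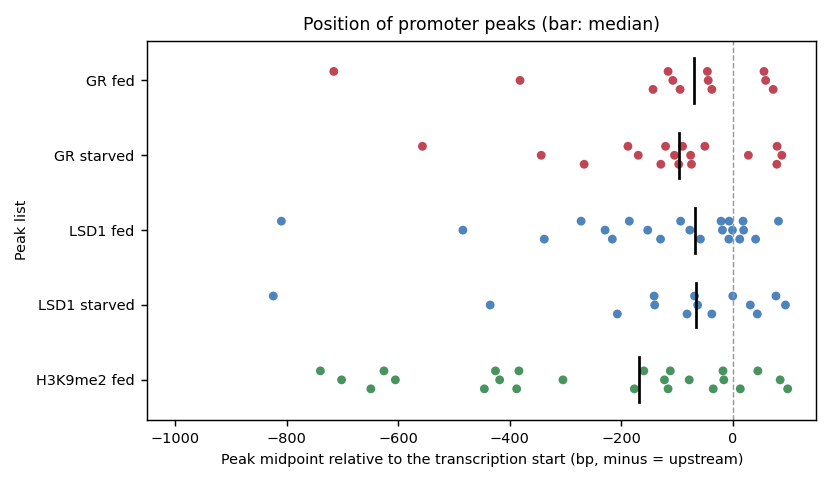
Position of the peak midpoint relative to the transcription start in bp (x axis, minus is upstream) for the promoter peaks of proteasome genes in 5 lists (rows). Each point is a peak and the black bar is the median, which is 70.0 bp upstream for GR in fed muscle and 168 bp upstream for H3K9me2 in fed muscle.

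H3K9me2, a mark associated with silent chromatin, had a promoter peak at 21 proteasome genes in fed muscle (48.8%, 33.3 to 64.5), against 24.3% of all NM_ genes and 36.0% of those with a CpG-rich promoter. In starved muscle it had one at 0 of 43, which allows a share of up to 8.22% (exact interval), against 0.186% of all NM_ genes. The fed folds were 2.68 to 5.16, the highest at Psmb2 (chr4:126677484-126677557, q = 8.94e-06), and 6 genes remained at a q of 0.01 or less. With both H3K9me2 lists reduced to the length of the shorter one, 2 genes remained in fed muscle. Shares of all NM_ genes were not counted for H3K9me2 under these limits. Of the fed H3K9me2 promoter peaks, 29.2% at proteasome genes and 22.5% over all NM_ genes had a q of 0.01 or less. LSD1 and H3K9me2 were both listed in fed muscle at 10 proteasome promoters, against 11.2% of all NM_ genes, and their peaks overlapped at 6 (Psma7, Psmb2, Psmc4, Psmc6, Psmd11 and Psmd13), against 6.88%. H3K9me2 was thus listed at 10 of the 21 proteasome genes with LSD1 in fed muscle (47.6%) and at 11 of the 22 without it, while over all NM_ genes the shares were 44.2% and 17.6%. H3K9me1 had a promoter peak at 1 proteasome gene in fed muscle, Psmb6 (4.42, q = 0.00442), against 2.08% of all NM_ genes, and at 1 in starved muscle, Psmc2 (3.91, q = 0.0266), against 3.20%.

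Within 30 kb of a start, GR had a peak near 25 proteasome genes in fed muscle (58.1%), against 42.2% of all NM_ genes, and near 37 in starved muscle (86.0%), against 65.2%. LSD1 had one near 31 (72.1%) in fed muscle, against 51.5%, and near 35 (81.4%) in starved muscle, against 81.8%. Among NM_ genes with a CpG-rich promoter the shares were 57.1% and 81.6% for GR and 71.0% and 87.8% for LSD1, in fed and starved muscle in that order. With lists of equal length LSD1 was near 31 proteasome genes in fed and 19 in starved muscle (51.5% and 42.0% of all NM_ genes), the opposite order, and GR near 25 and 26 (42.2% and 41.1%). H3K9me1 was listed near 12 genes in fed muscle, against 33.6% of all NM_ genes, and near 27 in starved muscle, against 61.6%. H3K9me2 was listed near 42 in fed muscle, against 95.1%, and near 3 in starved muscle (Psma4, Psmb1 and Psmc4), against 7.45%. Lists of equal length gave 12 and 13 for H3K9me1 (33.6% and 30.6% of all NM_ genes) and 14 and 3 for H3K9me2 (18.7% and 7.45%). Psmd10, on chromosome X, had no GR, LSD1 or H3K9me2 peak within this distance. On average a proteasome gene had 1.07 GR peaks in the fed list and 2.86 in the starved list, against 0.820 and 2.23 over all NM_ genes, and 1.44 and 2.56 LSD1 peaks, against 1.13 and 2.23.

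**Figure D5:**
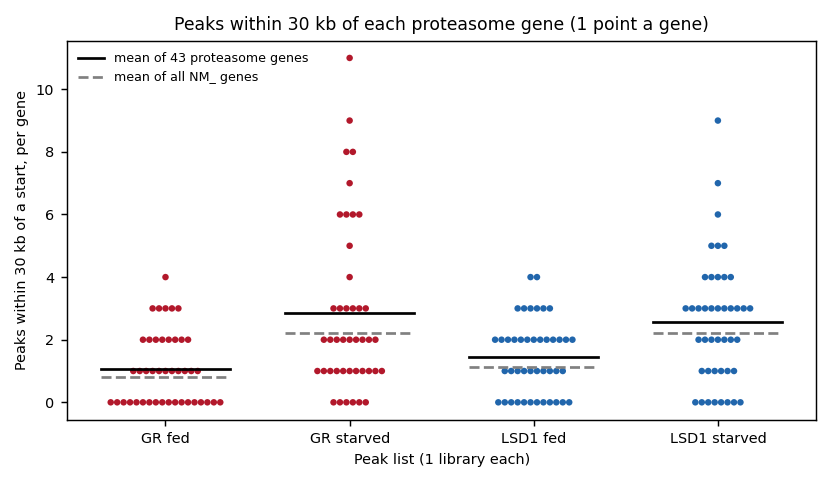
Number of GR and LSD1 peaks within 30 kb of a transcription start (y axis) for each proteasome gene (points) in 4 lists (x axis), with the mean of the 43 genes (solid line) and of all NM_ genes (dashed line). The highest value, 11, belongs to Psmb3 for GR in starved muscle.

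Outside the promoter window, 31 GR peaks of fed muscle lay within 30 kb of a proteasome gene, and for 11 of them the nearest start was that of a proteasome gene. In starved muscle these numbers were 96 and 34, for LSD1 in fed muscle 35 and 6, and for LSD1 in starved muscle 92 and at least 47. A peak near several proteasome genes was checked only against the first of them. A starved LSD1 peak nearest to Psmb9, which also lay near Psmb8, was thus left out. In the first 3 of these lists most such peaks were nearer to another gene. The strongest GR peak in both conditions lay 12.4 kb downstream of the Psmc5 start, in an intron of Smarcd2 (chr11:106268481-106268656), with folds of 8.42 in fed and 5.16 in starved muscle, and LSD1 overlapped it in fed muscle (3.72). The strongest LSD1 peak of fed muscle lay in an intron of Psmb3 (chr11:97712385-97712453, fold 5.38, q = 0.000113), where GR was listed in fed (4.19) and starved muscle (3.03). Psmb3 also had the most peaks, 11 for GR and 9 for LSD1 in starved muscle. Outside the promoter window the strongest LSD1 peak of starved muscle lay in an exon of Psmd7, 121 bp downstream of its start (fold 4.78). Psme1 and Psme2, Psmb5 and Psmb11, and Psmb8 and Psmb9 lie within 30 kb of each other and share peaks, such as 7 GR peaks of starved muscle for the first pair.

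Of the 43 GR peaks of fed muscle within 30 kb of a proteasome gene, 30 overlapped a GR peak of starved muscle (69.8%, exact interval 53.9 to 82.8), against 65.9% of all fed GR peaks. For LSD1, 20 of 57 fed peaks overlapped a starved peak (35.1%, 22.9 to 48.9), against 22.9% of all fed LSD1 peaks. At proteasome promoters this held for 12 of 22 LSD1 peaks, and outside them for 8 of 35, while 35.4% of the fed LSD1 peaks at all NM_ promoters overlapped a starved one. LSD1 overlapped 19 of the 43 GR peaks in fed muscle (44.2%) and 26 of the 113 in starved muscle (23.0%), against 48.2% and 14.6% over all GR peaks.

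Sequence motifs were searched on both strands in the 300 bases around the start (250 before to 50 after) of the 36 proteasome genes with a RefSeq promoter sequence, and no such sequence was used for Psma8, Psmb1, Psmb2, Psmb7, Psmc3, Psmd3 and Psmd7. The core of the nuclear respiratory factor NRF1, GCGCATGCG, was found in 1 promoter, that of Psma2 (2.78%), against 2.70% of 16839 NM_ genes, with 3 matches, of which 2 overlap on opposite strands, all under the GR peak of starved muscle. The antioxidant response element core TGACNNNGC, which Nfe2l1 and Nfe2l2 can bind, was found in 6 (16.7%), against 14.9%. The matches of Psmd9 (GR, fed), Psme4 and Psmd12 (GR, starved) and Psmb6 and Psmc6 (LSD1, fed) lay under a peak, and that of the catalytic subunit gene Psmb5 did not. The CCAAT box was found in 14 (38.9%), against 42.5%, and the GC box GGGCGGG in 16 (44.4%), against 38.0% of all and 60.8% of CpG-rich promoters. CCAAT matches lay under a GR or LSD1 peak at 7 genes, which were Psma2, Psma3, Psma7, Psmb3, Psmc1, Psmc2 and Psmd4. GC box matches did so at 11 genes, namely Psma4, Psma7, Psmc4, Psmc6, Psmd2, Psmd5, Psmd8, Psmd9, Psmd11, Psmd12 and Psme4. The share of matches under a peak was not counted over all NM_ promoters. Most GR and LSD1 promoter peaks lay within 200 bp of the start, so a match under a peak does not link a motif to binding. Matches of different motifs may overlap, as the antioxidant response element core and the GC box do in Psmd9. The glucocorticoid response element, AGAACA and TGTTCT with 3 bases between them and at most 1 mismatch, was found in 0 of 36 promoters, against 0.196% of all. It was also found in 0 of the 43 GR peaks of fed muscle within 30 kb of a proteasome gene (exact interval up to 8.22%), against 2.17% of all fed GR peaks, and in 0 of the 113 of starved muscle (up to 3.21%), against 0.712%.

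Other genes of the pathway, from a list of 28 of which 27 were in the annotation, comprised assembly factors, shuttle and ubiquitin genes and the transcription factors of proteasome genes. GR had a promoter peak at 8 of 27 in fed muscle (29.6%, against 15.1% of all NM_ genes) and at 17 in starved muscle (63.0%, against 26.0%). LSD1 had one at 14 in fed muscle (51.9%, against 25.4%) and at 8 in starved muscle (29.6%, against 18.0%). H3K9me2 had one at 13 in fed muscle (48.1%, against 24.3%) and at 0 in starved muscle (against 0.186%). Both factors were listed in both conditions at 2 of them (7.41%, against 4.68%), the polyubiquitin gene Ubb and Nfe2l1, which encodes the factor that raises proteasome gene transcription when the proteasome is inhibited. At Nfe2l1 the fed peaks had a fold of 4.93 for GR and 3.86 for LSD1, and the starved peaks 2.80 and 3.50. At Nrf1, the gene of the respiratory factor named above and not related to Nfe2l1, LSD1 was listed in fed (4.94) and starved muscle (3.43) and GR in starved muscle (2.73). The assembly genes Pomp and Psmg4 had GR in starved muscle (2.91 and 2.67) and no LSD1, and Psmg1 had neither. No GR or LSD1 promoter peak was listed at 6 of the 27 (22.2%, against 58.3%).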

How the data were processed

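ChIP-seq peak lists of 8 libraries (GR, LSD1, H3K9me1 and H3K9me2 in fed and 24 h starved muscle) were analysed, and the 2 input libraries have no list here. Per the labels and the study's methods, the authors mapped reads to mm10 with Bowtie, kept unique reads, removed blacklisted regions (the blacklist is named as one of hg38) and called broad peaks with MACS2. The deposited columns used were the fold (a ratio over input) and the −log10 q-value; the deposited −log10 p-value was not used, and the deposited score was not used either. The deposited lists reach q-values of 0.0998, and the starved LSD1 list may be another version than the one the study describes.

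Starts came from RefSeq NM_ transcripts of GRCm38.p6 (26032 starts of 21000 genes). Peaks were assigned by midpoint, and assignment was tested on simulated data. Shares have exact (Clopper-Pearson) 95% intervals, which cover counting error only; genes are not independent replicates. No test between conditions was made. Overlap meant at least 1 bp. All subunit genes are described by role, and genes are named with values where they had peaks in all or none of the GR and LSD1 lists, the highest fold or ratio, or a motif under a peak; further genes were named with values by role after these were seen. Members and lists were chosen with earlier results of these data known. Alternatives were q-values of 0.01 and 1e-05, lists of equal length, any overlapping base, a window to 1 kb downstream, 10 kb, nearest start, 50% overlap and scaled folds. Python 3.11.15, pandas 2.3.3, scipy 1.17.1 and pysam 0.24.0 were used.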

Additional observations from a re-analysis of the deposited data

Results flagged for a closer look

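The number of proteasome genes with a GR promoter peak was higher in starved than in fed muscle by 6, whereas for LSD1 the difference of starved minus fed was -8. All NM_ genes moved the same ways, from 15.1% to 26.0% for GR and from 25.4% to 18.0% for LSD1. With fed and starved lists of equal length both factors were lower in starved muscle, with GR counts of 11 and 10 and LSD1 counts of 21 and 7, so the opposite directions did not hold there. The LSD1 difference also depended on where the window ends. With a window to 1 kb downstream, LSD1 counts were 21 in fed and 18 in starved muscle, and GR counts 11 and 22. When any base of a peak in the promoter counted, they were 21 and 15 for LSD1 and 11 and 22 for GR. Shares of all NM_ genes were not counted under these windows. Each number compares 1 library with 1 library, and the difference between GR and LSD1 was not tested.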

How the results depend on the processing

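Of 80 alternative values 44 stayed near the reported one, 34 moved and 2 reversed. For promoter peaks at a q-value of 1e-05 or less, the counts were 2 (GR, fed), 2 (GR, starved), 0 (LSD1, fed), 0 (LSD1, starved), 0 (H3K9me1, fed), 0 (H3K9me1, starved) and 1 (H3K9me2, fed). At 0.01 or less they were 9 (GR, starved), 13 (LSD1, fed), 2 (LSD1, starved), 0 (H3K9me1, starved) and 6 (H3K9me2, fed), and overlaps of GR and LSD1 were 3 in fed and 1 in starved muscle. Over all NM_ genes the shares at 1e-05 or less, in fed and starved muscle, were 1.44% and 1.26% for GR and 0.143% and 0.0667% for LSD1. For the promoter counts of the histone marks and the overlaps of GR and LSD1, shares of all NM_ genes were not counted at these limits. Lists of equal length gave promoter counts of 10 (GR, starved), 7 (LSD1, starved), 0 (H3K9me1, starved) and 2 (H3K9me2, fed), and a window to 1 kb downstream gave 2 for H3K9me1 in starved muscle. Within 30 kb, a q-value of 0.01 or less gave 11 (LSD1, starved), 7 (H3K9me1, fed), 16 (H3K9me1, starved) and 1 (H3K9me2, starved). Lists of equal length gave 19 (LSD1, starved), 13 (H3K9me1, starved) and 14 (H3K9me2, fed). A limit of 10 kb gave 6 (H3K9me1, fed), 15 (H3K9me1, starved) and 0 (H3K9me2, starved). The nearest start gave 14 (GR, fed), 20 (LSD1, fed), 4 (H3K9me1, fed), 12 (H3K9me1, starved) and 1 (H3K9me2, starved). Fewer peaks or genes enter under each of these by construction, except under the longer window. The median GR ratio of 0.933 became 1.03 at a q-value of 0.01 or less and 1.04 with scaled folds; the cause was not tested. No paired analysis was possible because each group had 1 library.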

Other observations

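The same counts were made for 3 other gene groups. Of 77 cytosolic ribosomal protein genes, 21 had a GR promoter peak in fed muscle (27.3%) and 38 in starved muscle (49.4%), and 45 (58.4%) and 27 (35.1%) had an LSD1 peak. Of 78 mitochondrial ribosomal protein genes, 22 (28.2%) and 35 (44.9%) had GR, and 35 (44.9%) and 22 (28.2%) had LSD1. Of 1103 olfactory receptor genes, 1 had a GR promoter peak in fed and 3 in starved muscle, and 0 and 15 had LSD1. H3K9me2 had a fed promoter peak at 34 of the cytosolic (44.2%) and 23 of the mitochondrial ribosomal genes (29.5%).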
